A study of Danio rerio with 6 samples.

Results

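Xanthophores are the yellow pigment cells of the zebrafish, and 9 of their genes were followed here in larval tail fin tissue after exposure to sunitinib. The genes were slc2a15a, slc2a15b, aox5, gch2, xdh, pts, pax7a, pax7b and scarb1, taken by symbol from a table of 24923 genes, in which all 9 were found. They were chosen by their known role in yellow pigment synthesis or xanthophore identity, and also selected on earlier results of these data, namely the sunitinib and DMSO expression values. The difference between the groups is therefore given as a description of these 9 genes and was not used as a test of them.

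Larvae were kept from 2 days post fertilization (dpf) in medium with 8 μM sunitinib, an inhibitor of several receptor tyrosine kinases, or in the vehicle, 0.1% DMSO. According to the study's methods, DMSO was held at that concentration in the working solutions as well, so both groups received it. The tail fin was cut at 3 dpf, the solutions were kept, and fin tissue was taken 6 h later. Each group held 3 replicates (DMSO replicates 1 to 3 and sunitinib replicates 1 to 3), each pooled from over 60 larvae. The study used the AB strain and a line with green macrophages, Tg(MPEG-GFP), and the labels do not say which of them gave the RNA. No amputation-free group was analysed here, so the values describe cut fins with or without the drug.

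The libraries held 13394060 to 15294706 estimated reads. DMSO replicate 1 stood apart: a chi-square test of counts between libraries, divided by its degrees of freedom, gave 32.2 to 55.9 for the pairs that include it and 7.98 to 22.7 for the rest. The tissue was mixed. The 10 genes listed for epidermis and fin fold summed to 25393 to 31057 CPM (counts scaled to library size by TMM) with DMSO and 26921 to 30075 with sunitinib. The 13 genes of muscle and its precursors summed to 28950 to 36302 CPM and 29188 to 35228 CPM.

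Yellow colour in xanthophores comes from pteridines made from GTP and from carotenoids taken up from yolk or food. GTP cyclohydrolase opens the pteridine route, 6-pyruvoyltetrahydropterin synthase (Pts) carries its product on, and oxidases of the xanthine dehydrogenase family act on the pterins that follow. The cells arise from the neural crest, need the receptor Csf1ra to populate the skin, and need the transcription factors Pax7a and Pax7b to be specified. Csf1ra belongs to the receptor family that sunitinib inhibits. Several of the 9 genes also work elsewhere, pax7a and pax7b in muscle stem cells and dorsal neural tube, and xdh and scarb1 in liver, intestine and other tissues.

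All 9 genes had lower mean values with sunitinib than with DMSO, where 50.5% of the 17309 genes tested had a negative log2 fold change (edgeR). As a ratio, the difference was largest for the transporter gene slc2a15a, at 9.46 ± 2.15 TPM (a measure per transcript length and depth; SD, n = 3) with DMSO and 4.17 ± 0.214 TPM (SD, n = 3) with sunitinib. As a ratio of CPM it was smallest for gch2, the most abundant of the genes, which was 13.7% lower, close to slc2a15b at 14.5%. In TPM gch2 was 20.1% lower and slc2a15b 20.4%, and each of the 9 genes differed more in TPM than in CPM. That shift was not particular to the 9. The mean of the lineage gene foxd3 was 33.2 and 32.8 CPM with DMSO and sunitinib, but 17.95 and 16.6 TPM. That of the reductase gene spra was 6.41 and 6.97 CPM, but 2.26 and 2.25 TPM. How many of all genes moved so was not counted. In normalized CPM, every sunitinib replicate lay below every DMSO replicate for 8 of the 9 genes, all but gch2. Among the 17309 genes tested, 10.8% were ordered in that way. The gap was narrow for slc2a15b (highest sunitinib value 18.68 CPM, lowest DMSO value 18.70 CPM), scarb1 (8.12 and 8.17) and pax7a (2.09 and 2.10). In TPM 7 of the 9 were separated, all but slc2a15b and scarb1, where 11.4% of the genes tested were so ordered. Because the genes were picked with this contrast known, nothing is read from these counts against those shares. Fewer xanthophores and less RNA per xanthophore cannot be told apart in bulk tissue.

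**Figure D1:**
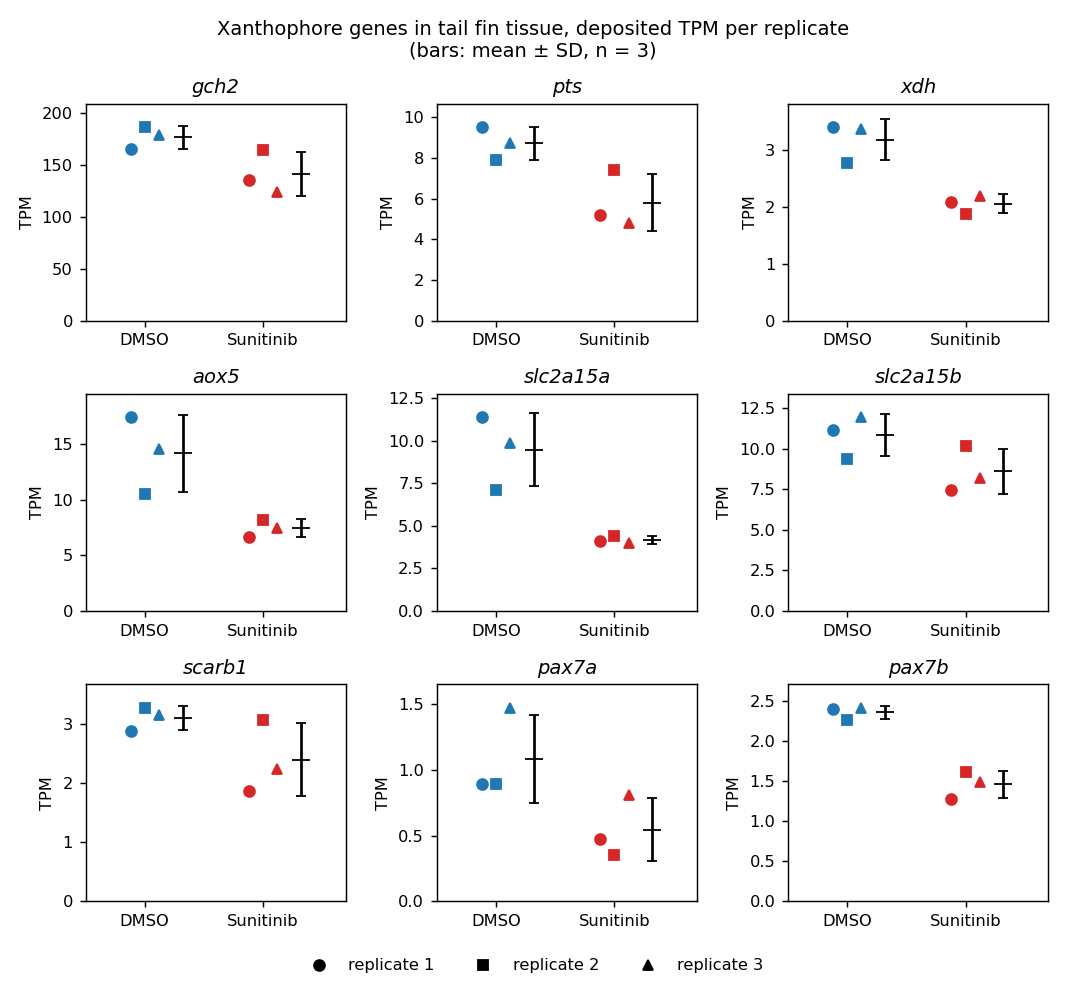
Deposited TPM of the 9 xanthophore genes in each replicate (y axes from 0, a scale of its own for each gene), with DMSO in blue and sunitinib in red, and the mean ± SD of 3 replicates in black. The sunitinib points of slc2a15a (at most 4.41 TPM) lie close together below the DMSO points (7.13 to 11.4 TPM), while those of slc2a15b and scarb1 reach into the DMSO range. For each of the 9 genes the group means differ more in TPM than in normalized CPM, a shift also seen in genes outside the 9, such as foxd3.

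In fin tissue without the drug the 9 genes differed widely in level. With DMSO, gch2 stood at 177 ± 10.97 TPM (SD, n = 3), above 97.6% of the genes tested, and alone made up 76.98% of the summed TPM of the 9. It was followed by aox5 at 14.2 ± 3.45 TPM, slc2a15b at 10.8 ± 1.30 TPM, slc2a15a at 9.46 ± 2.15 TPM and pts at 8.72 ± 0.815 TPM (SD, n = 3 each). The replicate ranges of neighbours in that stretch overlapped, while every aox5 replicate (10.6 to 17.4 TPM) lay above every pts replicate (7.90 to 9.53 TPM). Below them, xdh at 3.18 ± 0.359 TPM and scarb1 at 3.10 ± 0.204 TPM also overlapped each other. The 2 transcription factor genes were lowest, with pax7b at 2.35 ± 0.0814 TPM and pax7a at 1.08 ± 0.335 TPM (SD, n = 3 each), and their ranges did not overlap. The median gene tested stood at 2.98 TPM.

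With sunitinib the order changed in 3 places. The transporter gene slc2a15b came second at 8.61 ± 1.38 TPM and aox5 after it at 7.44 ± 0.801 TPM (SD, n = 3 each), with overlapping ranges. The gene pts, at 5.79 ± 1.40 TPM, came before slc2a15a, and their ranges did not overlap. scarb1 stood before xdh, again with overlapping ranges. The share of gch2 in the summed TPM was 81.3%.

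The pteridine enzymes are taken first, in the order of the pathway. gch2 encodes the GTP cyclohydrolase of pigment cells. It was read at 165, 187 and 179 TPM in DMSO replicates 1 to 3 and at 135, 165 and 124 TPM in sunitinib replicates 1 to 3. Sunitinib replicate 2 lay just below the lowest DMSO value, and in normalized CPM the groups overlapped (312 to 359 with DMSO and 253 to 328 with sunitinib). For gch2 the log2 fold change, sunitinib against DMSO, was -0.21 (standard error 0.15, edgeR), and -0.12 without sunitinib replicate 3. Its paralogue gch1, the cyclohydrolase that supplies the cofactor tetrahydrobiopterin in other cells, was too low to be tested, at 1.03 ± 0.551 TPM with DMSO and 0.747 ± 0.310 TPM with sunitinib (SD, n = 3 each). Within a library gch2 was 109 to 328 times as high as gch1 per length, so nearly all cyclohydrolase transcripts of the tissue came from gch2 in both groups.

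The next enzyme gene, pts, was read at 9.53, 7.90 and 8.72 TPM with DMSO and at 5.18, 7.39 and 4.79 TPM with sunitinib. The groups did not overlap, although sunitinib replicate 2 lay near DMSO replicate 2. pts rested on 62 to 111 reads per library, and its log2 fold change was -0.49 (standard error 0.18, edgeR). pts was the shortest of the 9 genes, with an effective length of 671 bases, and fold changes of all genes followed length (Spearman correlation across genes -0.40, where genes are not independent replicates). With the length trend taken out its log2 fold change was -0.69.

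The xanthine dehydrogenase gene xdh, whose enzyme acts on pterins and on purines, was read at 3.41, 2.77 and 3.37 TPM with DMSO. With sunitinib it stood at 2.09, 1.87 and 2.20 TPM, below all DMSO values. For xdh the log2 fold change was -0.50 (standard error 0.17, edgeR). It was -0.37 with the length trend taken out, where xdh is the longest of the 9 at 5305 bases.

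The related aldehyde oxidase gene aox5, a standard marker of zebrafish xanthophores, was read at 17.4, 10.6 and 14.6 TPM with DMSO and at 6.62, 8.22 and 7.47 TPM with sunitinib. DMSO replicate 2 was the lowest control, and still above the highest sunitinib value. edgeR put the log2 fold change of aox5 at -0.82 (standard error 0.17, edgeR), and -0.65 without DMSO replicate 1, in which aox5 was highest. In the RefSeq order of genes on the assembly GRCz12tu, aox5 lies next to aox6, another aldehyde oxidase gene. aox6 stood at 0.733 ± 0.0551 TPM with DMSO and 0.733 ± 0.159 TPM with sunitinib (SD, n = 3 each), and its log2 fold change was 0.10 (edgeR, standard error 0.20, adjusted p = 0.841).

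The pair slc2a15a and slc2a15b encodes sugar transporters of the Glut family, and in medaka slc2a15b is needed for pigment cells of the yellow and white lineage. slc2a15a was read at 11.4, 7.13 and 9.88 TPM with DMSO and at 4.1, 4.41 and 4.0 TPM with sunitinib. In TPM the sunitinib replicates varied little, with a coefficient of variation of 5.13% against 22.7% with DMSO. In normalized CPM the contrast was smaller, at 13.8% with sunitinib and 21.9% with DMSO. slc2a15a had the most negative log2 fold change of the 9 with all libraries, -1.06 (standard error 0.19, edgeR), and -0.91 without DMSO replicate 1, in which it was highest. pax7a was more negative without that replicate, at -0.98, and without sunitinib replicate 3, at -1.25 against -1.02 for slc2a15a.

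Its paralogue differed less between the groups. slc2a15b was read at 11.2, 9.39 and 11.9 TPM with DMSO and at 7.47, 10.1 and 8.22 TPM with sunitinib, so that sunitinib replicate 2 lay above DMSO replicate 2. The log2 fold change of slc2a15b was -0.23 (standard error 0.14, edgeR). Within each library, slc2a15a stood to slc2a15b as 1.02, 0.759 and 0.828 with DMSO and as 0.549, 0.435 and 0.487 with sunitinib. These TPM ratios did not overlap, and the mean went from 0.869 ± 0.135 to 0.490 ± 0.0571 (SD, n = 3 each). The 2 genes were near equal in DMSO replicate 1, and slc2a15b was the higher of them in DMSO replicates 2 and 3 and in all 3 sunitinib replicates. Ratios of slc2a15a to gch2 did not overlap either (0.0382 to 0.0689 with DMSO and 0.0267 to 0.0323 with sunitinib), while those of aox5 to gch2 did. slc2a15b was the 1 gene of the 9 whose estimated reads were not whole numbers, as where a counter shares a read between genes, while the other 8 had whole reads in all libraries. The genes lie beside fgf8a (slc2a15a) and fgf8b (slc2a15b) in the RefSeq order on GRCz12tu. fgf8a, a growth factor gene, had a log2 fold change of 0.26 (edgeR, adjusted p = 0.534) and its paralogue fgf8b one of -0.12 (adjusted p = 0.924). lbx1b, a homeobox gene on the other side of slc2a15b, had -0.58 (adjusted p = 0.454).

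**Figure D2:**
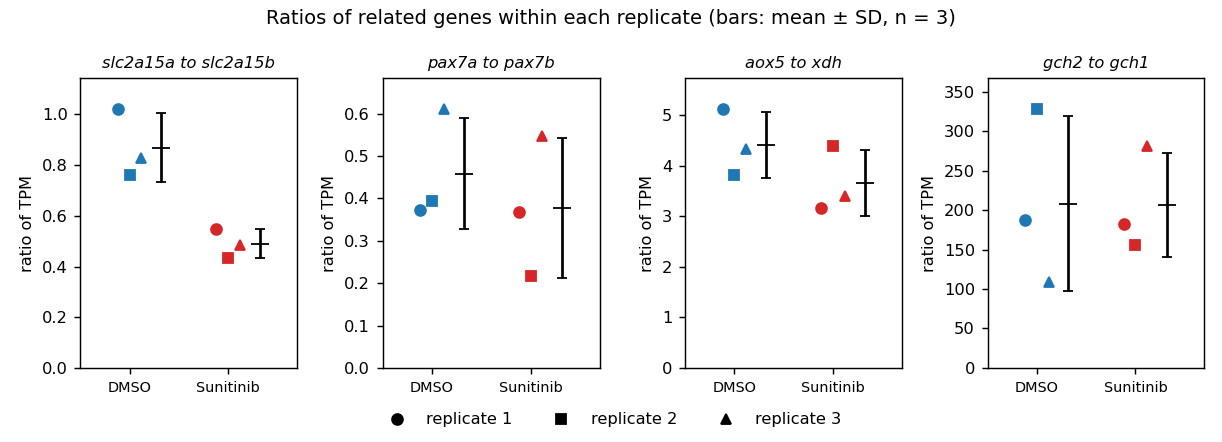
Ratios of deposited TPM between related genes within each replicate (y axes from 0), with DMSO in blue, sunitinib in red and mean ± SD of 3 replicates in black. The ratio of slc2a15a to slc2a15b is 0.759 to 1.02 with DMSO and 0.435 to 0.549 with sunitinib, while the ratios of pax7a to pax7b, aox5 to xdh and gch2 to gch1 overlap between the groups.

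scarb1 encodes a scavenger receptor that takes up lipoprotein lipids and is needed for carotenoid colour in zebrafish xanthophores. It was read at 2.88, 3.28 and 3.15 TPM with DMSO and at 1.87, 3.08 and 2.24 TPM with sunitinib, and the groups overlapped through sunitinib replicate 2. In normalized CPM they did not (8.17 to 9.49 and 6.85 to 8.12). For scarb1 the log2 fold change was -0.28 (standard error 0.16, edgeR). Genes of liver, intestine and yolk, tissues that also use xdh and scarb1, summed to 4789 to 5088 CPM over 10 markers with DMSO and 4733 to 6973 with sunitinib. Of the 8 tested, 5 were negative with a median of -0.07, and 1 was negative with a median of 0.10 without DMSO replicate 1. With DMSO, apoa2 stood at 6745 TPM and tfa, for transferrin, at 346 TPM, while fabp10a, a liver fatty acid binding protein gene, was at 0 TPM. The 8 endothelial markers summed to 147 to 181 CPM with DMSO, highest in replicate 1, and to 134 to 149 CPM with sunitinib. Of these 8, 3 were lower at an unadjusted p under 0.05 (edgeR), as were 1059 of all 17309 genes tested, and none passed the test. Without DMSO replicate 1, 6 of the 8 lay below 0 on the log2 scale, with a median of -0.25. With all libraries 7 of the 8 lay below 0, and the median of the 8 was -0.36. Among them were cdh5, the cadherin of vessel walls, at -1.31 (standard error 0.29, adjusted p = 0.200, edgeR), the receptor gene kdrl at -0.45 and fli1a at -0.33. The part of these tissues in the xdh and scarb1 values was not tested.

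The transcription factor genes were the least abundant. pax7b was read at 2.39, 2.26 and 2.41 TPM with DMSO and at 1.28, 1.61 and 1.48 TPM with sunitinib. With DMSO the 3 replicates agreed within a coefficient of variation of 3.46%, the smallest of the 9 genes, and the groups were well apart. pax7b rested on only 51 to 82 reads per library, so that close agreement is not read as precision. For pax7b the log2 fold change was -0.58 (standard error 0.18, edgeR), and every replicate left out in turn gave -0.61 to -0.54.

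Its paralogue pax7a was read at 0.89, 0.89 and 1.47 TPM with DMSO and at 0.47, 0.35 and 0.81 TPM with sunitinib. The gap was narrow, since sunitinib replicate 3 and DMSO replicate 1 stood at 2.09 and 2.10 CPM, on 31 and 30 reads. The log2 fold change of pax7a, -0.85 (standard error 0.35, edgeR), had the largest error of the 9, and was -0.54 without sunitinib replicate 2 and -0.46 on the log2(FPKM + 1) scale, which understates changes of low genes. pax7a stood at 0.372, 0.394 and 0.610 times pax7b with DMSO and at 0.367, 0.217 and 0.547 times with sunitinib, and these ratios overlapped.

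Muscle and dorsal neural tissue also use the pax7 genes. Of 11 tested genes of muscle and its precursors, 8 had a negative log2 fold change and none passed an adjusted p of 0.05, with a median of -0.14 (edgeR). The cadherin gene cdh15 of muscle precursors had -0.56 (standard error 0.22, adjusted p = 0.324), the receptor gene met had -0.28 and the troponin gene tnnt3b had 0.35. Of 7 tested genes of dorsal neural tissue, 5 were negative, with a median of -0.24. At an unadjusted p under 0.05 (edgeR), 3 of the 7 were lower, as were 1059 of all 17309 genes tested. The homeobox gene lmx1ba had -0.75 (standard error 0.28, adjusted p = 0.314), zic2a had -0.34 and elavl3 had -0.33. The progenitor gene sox2 had 0.11 and the glial gene gfap 0.00. The part of either tissue in the pax7a and pax7b values was not tested.

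Over all genes, edgeR's quasi-likelihood test called none of the 17309 genes tested at an adjusted p of 0.05 (0%), and thus none of the 9, whose adjusted p ran from 0.190 for slc2a15a to 0.536 for gch2. At an unadjusted p under 0.05 there were 2359 genes, of which 1059 were lower with sunitinib, and 6 of the 9 were among the lower ones. DESeq2, the tool of the study's methods, called 2 of the 9, slc2a15a (adjusted p = 0.00571) and aox5 (adjusted p = 0.0113), where 0.107% of the 14014 genes with an adjusted p were called lower. Without DMSO replicate 1, a setting chosen after seeing the data, DESeq2 gave 0.0496 for each of them, just under the threshold. Without a filter on low counts, edgeR gave slc2a15a an adjusted p of 0.0478. The other 7 genes passed in no setting run, though DESeq2 without DMSO replicate 1 gave pax7a and pax7b no adjusted p. The median log2 fold change of the 9 was -0.50, and that of all genes tested was -0.0041. All 9 stayed negative in each of the 15 other settings, which share most of their libraries with one another.

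**Figure D3:**
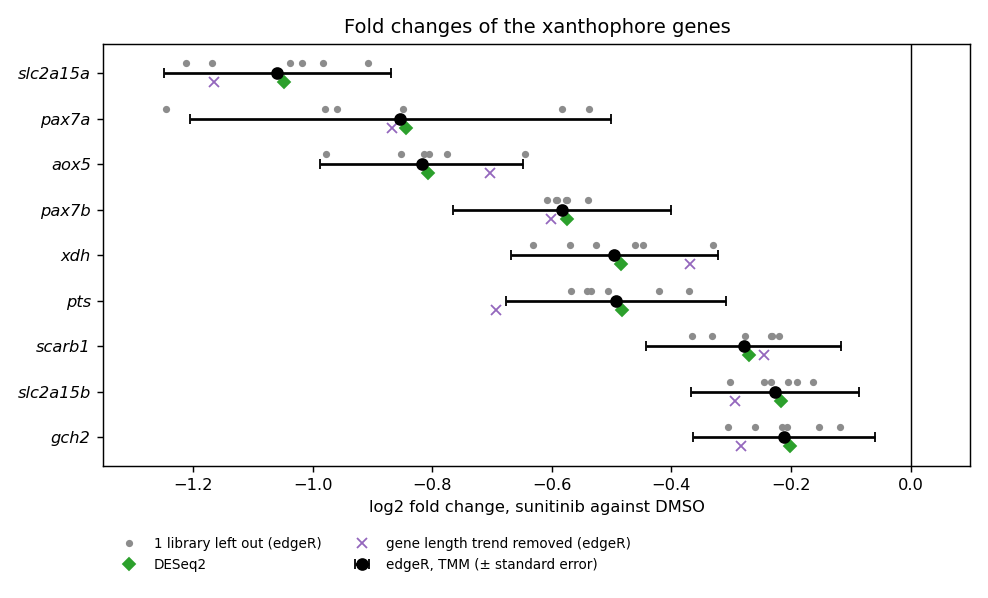
Log2 fold change of each xanthophore gene, sunitinib against DMSO (x axis), by edgeR with its standard error (black), with 1 library left out (grey), with the gene length trend removed (purple) and by DESeq2 (green). All points lie below 0, from -1.06 for slc2a15a to -0.21 for gch2 in the edgeR fit, and the grey points of pax7a spread most, from -1.25 to -0.54.

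Other genes around the pteridine pathway lay on both sides of 0. The list held enzymes that make or recycle tetrahydrobiopterin, those of the molybdenum cofactor of Xdh and Aox5, and gchfr, pah, aox6 and mycbp2, which do neither. Of the 15 tested, 11 had a log2 fold change above 0 and 4 below. The median was 0.12 and none passed the test over all genes. At an unadjusted p under 0.05 (edgeR), where 1059 of all 17309 genes tested were lower, 1 of the 15 was. That gene was sprb, for a sepiapterin reductase, at 2.23 ± 0.875 TPM with DMSO and 0.893 ± 0.491 TPM with sunitinib (SD, n = 3 each), which is -1.24 as a log2 fold change (edgeR, standard error 0.37, adjusted p = 0.293). sprb rested on 10 to 46 reads per library. Without DMSO replicate 1, in which sprb was highest, its log2 fold change was -0.87. The paralogue spra stood at 2.26 ± 0.190 TPM and 2.25 ± 0.0709 TPM, with a log2 fold change of 0.12 (edgeR, standard error 0.18). dhfr, for dihydrofolate reductase, and mocs3, of molybdenum cofactor synthesis, had 0.37 and 0.41 (standard errors 0.24 and 0.27).

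Purine synthesis supplies the GTP from which pteridines are made, in iridophores and in other cells as well. Of 15 tested genes, 10 were negative and 5 positive, with a median of -0.15 and none past the test. The median was -0.05 without DMSO replicate 1 and -0.08 without sunitinib replicate 1. The GMP synthetase gene gmps, at the last step to GMP, had -0.41 as its log2 fold change (edgeR, standard error 0.14, adjusted p = 0.307), and pfas, an earlier enzyme of the route, had -0.39 (standard error 0.15, adjusted p = 0.314). The IMP dehydrogenase gene impdh1a had 0.94 (standard error 0.36, adjusted p = 0.320) at a low level of 0.340 ± 0.0794 TPM with DMSO (SD, n = 3).

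Among 14 tested genes of carotenoid and lipoprotein handling, 11 were negative, with a median of -0.24 and none past the test. scarb2a, of the same receptor family as scarb1, had -0.56 on the log2 scale (edgeR, standard error 0.19, adjusted p = 0.307). mtp, which loads lipid onto lipoproteins, had -0.57 (standard error 0.26, adjusted p = 0.356), and star, for a sterol carrier, had -0.65 (standard error 0.34, adjusted p = 0.406). DMSO replicate 1 weighed on this list, which summed to 11938 CPM there and to 5278 and 5834 CPM in the other DMSO replicates. With sunitinib the sum was 5304 to 6478 CPM. The apolipoprotein genes apoa1a, apoa1b and apobb.1 made up most of that sum. Their DMSO means were 2774, 3070 and 1753 CPM, while that of scarb2a was 18.2 CPM. Without DMSO replicate 1 the median was -0.03, with 7 of 14 negative. The values were then -0.30 for scarb2a, -0.28 for mtp and -0.86 for star. The carotenoid-cleaving enzyme gene bco1 stood at 9.30 ± 1.30 TPM and 8.31 ± 1.54 TPM (SD, n = 3 each). Its log2 fold change was -0.06 (edgeR, standard error 0.15).

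Lineage genes of the neural crest and of pigment cells lay mostly below 0, with a median of -0.14 and none past the test. Of the 20 tested, 14 were negative, where 50.5% of all genes tested were. Summed over its 21 genes, the list gave 268 to 290 CPM with DMSO and 237 to 254 CPM with sunitinib, without overlap. A few abundant genes weighed on that sum. The mean of tfap2a was 82.6 CPM with DMSO and 71.2 CPM with sunitinib, and that of sox5 41.9 and 31.8 CPM. The mean of foxd3 was 33.2 and 32.8 CPM. Whether such sums stay apart for other lists of like size was not tested. csf1ra, the receptor that xanthophores need, stood at 0.970 ± 0.308 TPM with DMSO and 0.823 ± 0.171 TPM with sunitinib (SD, n = 3 each), with -0.13 on the log2 scale (edgeR, standard error 0.25, adjusted p = 0.827), and the groups overlapped. Without DMSO replicate 1 it had 0.15, and with each other library left out it stayed negative, from -0.28 to -0.03. Macrophages express csf1ra too, and the 8 macrophage markers summed to 37.1 to 45.1 CPM with DMSO and 37.2 to 40.9 CPM with sunitinib. sox10, the regulator of all crest pigment cells, had 0.02 (standard error 0.19, adjusted p = 0.962), and mitfa, the melanophore regulator, had -0.21 (standard error 0.18, adjusted p = 0.603). The value of sox10 ran from -0.17 without sunitinib replicate 3 to 0.20 without sunitinib replicate 2. The genes of this list with the smallest p were sox5, known from medaka to act with sox10 in pigment cell fate, at -0.40 (standard error 0.13), sox9b at -0.46 (standard error 0.16) and tfap2e at -0.64 (standard error 0.24), with adjusted p of 0.307 to 0.314.

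Of the 15 tested melanophore genes, 11 were negative, with a median of -0.35. At an unadjusted p under 0.05 (edgeR), 6 of the 15 were lower, where 1059 of all 17309 genes tested were. None of the 15 passed over all genes. The median was -0.12 without DMSO replicate 1 and -0.21 without sunitinib replicate 3. tyr, for tyrosinase, the first enzyme of melanin, had -1.16 on the log2 scale (edgeR, standard error 0.27, adjusted p = 0.206) and dct, for a later enzyme, -0.58 (standard error 0.20, adjusted p = 0.307). LOC799194, listed as tspan10, had -0.56 (standard error 0.20, adjusted p = 0.307). By DESeq2, tyr had an adjusted p of 0.0513, just above the threshold, and none of the 15 was called. The 12 tested iridophore genes were divided into 9 positive and 3 negative, with a median of 0.09, among them fhl2a at 0.27 and gbx2 at 0.25. Whether the xanthophore genes differed from the other pigment lists was not tested.

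**Figure D4:**
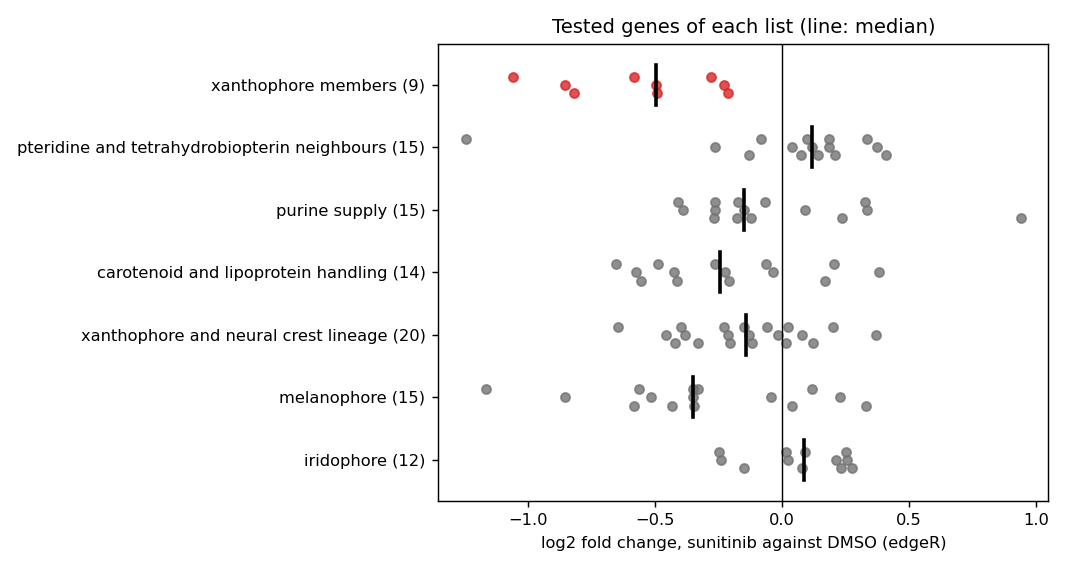
Log2 fold change by edgeR (x axis) of every tested gene of 7 lists (rows, number of genes in brackets), with the 9 xanthophore genes in red, other genes in grey and the median of each list as a black line. The medians run from -0.50 for the xanthophore genes and -0.35 for melanophore genes to 0.09 for iridophore genes and 0.12 for the pteridine neighbours.

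Variation among replicates of a group does not use the contrast between the groups. DMSO replicate 2 was the lowest control in normalized CPM for 6 of the 9 genes (slc2a15a, slc2a15b, aox5, xdh, pts and pax7b), and replicate 1 was the highest for 5 of them. gch2 and scarb1 had the opposite order, with DMSO replicate 1 lowest and replicate 2 highest. Among the sunitinib replicates, replicate 2 was the lowest for 5 genes (slc2a15a, aox5, xdh, pax7a and pax7b). As deviations from the group means over the 6 libraries, 23 of the 36 pairs among the 9 genes had a positive Pearson correlation, with a median of 0.18 and a range from -0.92 to 0.997, where the median over all pairs of tested genes was 0. The genes that followed most closely the mean profile of slc2a15a, slc2a15b, aox5 and gch2 were cyth1a (r = 0.996), foxp4 (r = 0.993) and arrdc3a (r = 0.988), beside 2 loci that carry only identifiers as names (r = 0.991 and 0.988). gch2 itself had a correlation of only 0.18 with that profile, and of -0.09, -0.04 and -0.37 with slc2a15a, slc2a15b and aox5, so the profile is mainly that of the other 3 genes. Of 10610 genes compared, 149 (1.40%) had a correlation above 0.9 with that profile. How high the top correlations run for other profiles over 6 libraries was not tested.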

How the data were processed

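RNA of tail fin tissue was sequenced in 3 DMSO and 3 sunitinib replicates, grouped by their titles. The authors filtered the paired reads of 150 bp, aligned them to GRCz11 and quantified genes. The sources used here do not give the aligner, the counter, its use of strand or the annotation. The deposited estimated counts (92.5% to 93.0% whole numbers in each library) are not normalized. The deposited FPKM and TPM were scaled by the authors for gene length and depth. The deposited normalized count signal and the authors' group means were not used.

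Estimated counts were rounded and tested with edgeR 4.0.16 in R 4.3.3 (TMM, filterByExpr, quasi-likelihood F-test, Benjamini-Hochberg over 17309 genes, 7614 not tested). A standard error is the absolute log2 fold change divided by the square root of F. Alternatives used DESeq2 1.42.0, limma 3.58.1 on log2(FPKM + 1) or log2(FPKM + 0.1), keeping genes that reach FPKM 1 in 3 libraries, other scaling and filters, a replicate block, a lowess curve on gene length (span 0.3) and each library left out. Effective length came from deposited counts and FPKM. Levels between genes were compared in TPM. The scripts were tested on simulated data.

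Members and lists were chosen with earlier results of these data known. List genes were matched by symbol, then by the gene ID of the RefSeq table for GRCz12tu, in which 23102 IDs of the 24923 were found; that table gave names and neighbours only. Named genes are the 9 members, up to 3 genes of each list with the smallest p, csf1ra, sox10, mitfa and gch1, and the 5 genes most alike within groups at 5 CPM or more. aox6, fgf8a, fgf8b and lbx1b were named for their place beside a member. The genes spra, bco1, pah, mycbp2, sox2, gfap, tfa, fabp10a, tfap2a and foxd3 were chosen after their values were seen. Pools of larvae are the replicates, and a p-value sets the group difference against the spread between pools, which edgeR estimates partly from all genes.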

Additional observations from a re-analysis of the deposited data

How the results depend on the processing

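The median log2 fold change of the 9 genes was -0.50 and ran from -0.45 to -0.61 with each library left out in turn, and the 9 genes were negative in all 15 alternatives. Of all genes, edgeR called 0 (2359 at an unadjusted p under 0.05), 12 without a filter on low counts, and 0 to 3 with each library left out in turn, the 3 without DMSO replicate 1 and 1 without DMSO replicate 2. DESeq2 called 43, and 28 without DMSO replicate 1, an alternative chosen after seeing the data. Of the 9 genes, edgeR called 0 and, without the filter, 1, and DESeq2 called 2, with and without DMSO replicate 1. With the replicate block, edgeR called 0 genes. Deviations of same-numbered libraries had correlations of -0.20, -0.11 and 0.03, and no library correlated best with its own number. With 3 libraries per group and group means taken out, these values cannot tell whether same-numbered libraries were paired. The median correlation within groups, 0.18, was 0.12 to 0.40 with each library left out, an alternative chosen after seeing the data. With each library left out, also chosen after seeing the data, list medians ran from 0.07 (without DMSO replicate 2) to 0.13 for pteridine neighbours, from -0.26 (without sunitinib replicate 1) to -0.10 for lineage genes, for iridophore genes from 0.02, which sunitinib replicate 1 left out gave, up to 0.19, from DMSO replicate 2 left out, and for muscle genes from -0.22, with DMSO replicate 1 left out, up to -0.05, with sunitinib replicate 2 left out. Over both groups, 9 genes kept their place in the order of levels in all settings but 1, and 5 did without sunitinib replicate 2. Few reads limited pax7a, with 12 to 51 per library, and also pax7b, with 51 to 82.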
